A study of Homo sapiens with 4 samples.

Results

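The human major histocompatibility complex (MHC) was taken as the interval chr6:29600001-33300000 on hg19 and read in tiles of 1 kb. Its members are all 3700 tiles of that interval, of 3093794 tiles in all, and 3513 of them held at least 1 read in at least 1 library (covered tiles, of 2598309 in all). Class III, chr6:31500001-32300000, has 800 tiles (731 covered), class I, up to chr6:31500000, has 1900 (1836 covered) and class II, chr6:32300001-33300000, has 1000 (946 covered). The members are defined by position, and no measured value enters that rule. It was chosen with earlier results of these data known.

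Chromatin immunoprecipitation and sequencing (ChIP-seq) had been run in K562, an established line of human leukaemia cells of erythroid character, with an antibody against DPF2 in 2 libraries and an antibody against H3K14cr (histone H3 crotonylated at lysine 14) in 2 libraries. All 4 libraries came from wild-type cells without a stated treatment, and no control library was analysed here. Their depth was 7787444 and 13317496 recovered reads (DPF2) and 10880366 and 17369133 recovered reads (H3K14cr). Levels are counts per 1000000 reads of a library (CPM). Over the tiles of the MHC, the pair of libraries of one antibody agreed within sampling noise (chi-square per degree of freedom 0.991 to 1.00 over 1 kb and 0.945 to 1.04 over 100 kb). They were therefore counted as 1 sample per antibody, and every p-value below measures technical spread only. Between antibodies the same quantity was 1.15 to 1.22 over 1 kb and 2.54 to 5.53 over 100 kb.

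DPF2 belongs to the BAF complexes, which remodel chromatin, and its double PHD finger recognises histone H3 with an acyl group on lysine 14. Crotonylation and acetylation of histone lysines are marks of active promoters and enhancers. The MHC is a gene-dense and highly polymorphic part of the human genome that serves immunity. Class I genes such as HLA-B and HLA-C present peptides from inside the cell to CD8+ T cells. Class II genes such as HLA-DRA, HLA-DRB1 and HLA-DQB1 present peptides taken up from outside to CD4+ T cells and are normally active in professional antigen-presenting cells, under the coactivator CIITA. Class III, between them, holds complement genes (C2, CFB), cytokine genes (TNF, LTA, LTB) and many widely expressed genes such as DDX39B, an RNA helicase, and BAG6, a chaperone. K562 cells are known for very low class I and absent class II molecules on their surface.

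The promoters of the genes give the sequence context of the classes. No annotation of hg19 was used here, so tiles are named by coordinates and are not tied to genes. In the RefSeq gene table of GRCh38.p14, class III (from MCCD1 to NOTCH4 in gene order) has 59 protein-coding genes, class I (MOG to MICB) 51 and class II (TSBP1 to DAXX) 34. A promoter sequence of 250 bases before to 50 after the start was matched by symbol for 53, 45 and 31 of them. The median number of CpG dinucleotides was 13 in class III promoters, 18 in class I and 12 in class II, against 22 over 15843 promoters of protein-coding genes. The quartiles were nearly the same, at 6 to 22 in class III, 6 to 22 in class I and 3 to 21.5 in class II, and no difference was tested. Among the HLA genes alone it was 18 over 4 class I promoters, with a range from 1 to 22, and 2.5 over 12 class II promoters, with a range from 1 to 27. The motif CCAAT on either strand (CCAAT or ATTGG), which forms the Y box of class II promoters, was in 35.8% of class III promoters, 46.7% of class I and 61.3% of class II, against 36.4% of all. A match describes the letters and is not evidence of a bound site.

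Promoters of 4 genes are printed as examples of the classes, each as the 250 bases before the start on its own strand (RefSeq, GRCh38.p14), with CpG dinucleotides in capitals. DDX39B stands for class III, HLA-B for class I and HLA-DRB1 for class II. BRD2, a bromodomain protein that binds acetylated histones, is a widely expressed gene inside class II.
DDX39B, chr6:31542004-31542253, minus strand: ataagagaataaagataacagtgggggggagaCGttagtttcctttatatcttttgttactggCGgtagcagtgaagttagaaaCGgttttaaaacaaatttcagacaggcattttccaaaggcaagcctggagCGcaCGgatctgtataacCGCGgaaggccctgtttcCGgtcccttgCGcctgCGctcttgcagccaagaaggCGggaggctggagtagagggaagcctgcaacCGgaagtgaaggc
HLA-B, chr6:31357180-31357429, minus strand: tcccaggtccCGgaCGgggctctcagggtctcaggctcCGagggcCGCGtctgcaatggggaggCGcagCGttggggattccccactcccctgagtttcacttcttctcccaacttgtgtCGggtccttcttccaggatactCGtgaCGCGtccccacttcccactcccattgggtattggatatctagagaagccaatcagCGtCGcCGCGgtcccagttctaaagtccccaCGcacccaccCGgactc
HLA-DRB1, chr6:32589849-32590098, minus strand: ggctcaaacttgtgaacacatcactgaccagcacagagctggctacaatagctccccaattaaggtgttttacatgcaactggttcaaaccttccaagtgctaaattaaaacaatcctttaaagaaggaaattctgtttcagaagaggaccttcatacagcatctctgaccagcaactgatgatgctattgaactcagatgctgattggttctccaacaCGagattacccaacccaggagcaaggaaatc
BRD2, chr6:32968344-32968593, plus strand: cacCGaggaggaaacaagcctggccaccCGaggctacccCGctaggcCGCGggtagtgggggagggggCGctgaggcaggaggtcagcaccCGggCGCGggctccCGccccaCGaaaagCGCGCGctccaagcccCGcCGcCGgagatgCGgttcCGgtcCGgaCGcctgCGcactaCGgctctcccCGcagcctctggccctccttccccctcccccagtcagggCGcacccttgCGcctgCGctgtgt
These stretches hold 12 CpG for DDX39B, 17 for HLA-B, 1 for HLA-DRB1 and 27 for BRD2. HLA-DRB1 and BRD2, both in class II, thus differ widely in CpG count.

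The first comparison asked how high the read level was in each class. Class III had the highest level of both antibodies, class I came next and class II was lowest, and all 3 stood above the rest of the genome in every library. In class III the mean level for DPF2 was 0.989 and 0.994 CPM per covered tile, and for H3K14cr it was 1.09 and 1.09. In class I it was 0.615 and 0.632 for DPF2, and 0.657 and 0.664 for H3K14cr. In class II it was 0.550 and 0.543 for DPF2, and 0.553 and 0.550 for H3K14cr. Outside the MHC the genome averaged 0.384 CPM per covered tile in each of the 4 libraries. Relative to the whole genome, class III was thus 2.57 to 2.58 times as high for DPF2 and 2.83 to 2.84 times for H3K14cr. The gap between class III and the other classes was far larger than the difference between libraries of an antibody, and so was the smaller gap between class I and class II. That difference measures technical spread only. Along the region the classes overlapped. In 100 kb windows the mean of both antibodies ran from 0.278 to 1.42 CPM per kb in class III, from 0.257 to 1.23 in class I and from 0.141 to 1.38 in class II. The 500 kb just before the MHC was at 0.346 and 0.371 CPM for DPF2 and 0.346 and 0.342 for H3K14cr, below all 3 classes. The 500 kb just after it was at 0.767 and 0.817 for DPF2 and 0.891 and 0.893 for H3K14cr, between class III and class I.

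**Figure D1:**
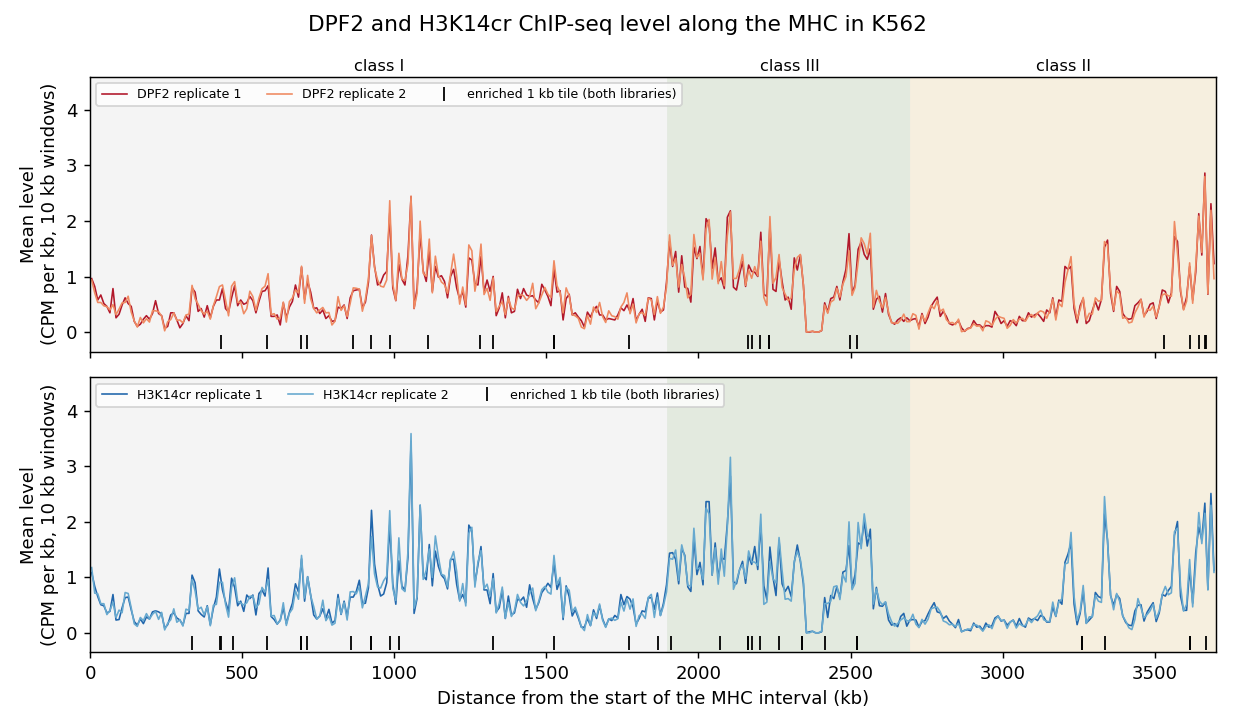
Mean level along the MHC in 10 kb windows, in CPM per kb, against distance from the start of the interval in kb, with 1 line per library and shaded classes. Black ticks mark 1 kb tiles enriched in both libraries of the antibody, 25 for DPF2 and 35 for H3K14cr, and a long stretch without ticks fills the first part of class II.

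Most of the class III reads lay in a raised level over long stretches rather than in isolated tiles. No control library was analysed, so this level was not separated from background reads, and its cause was not tested. Leaving out every tile enriched for either antibody, class III still had 0.938 and 0.941 CPM per covered tile for DPF2 and 1.03 and 1.04 for H3K14cr, against 0.374 and 0.374 for DPF2 and 0.371 and 0.371 for H3K14cr in the genome outside the MHC. In windows of 100 kb, levels within class III ranged from 0.278 to 1.42 CPM per kb as the mean of both antibodies. Its highest window, chr6:31600001-31700000, had 1.39 and 1.32 CPM per kb for DPF2 and 1.51 and 1.44 for H3K14cr. Its lowest, chr6:32200001-32300000 at the border with class II, had 0.283 and 0.282 for DPF2 and 0.267 and 0.282 for H3K14cr. Inside class III, 69 tiles had no read in any library (8.63%), the largest share of the classes (3.37% in class I and 5.40% in class II). The longest such run was chr6:31975001-32005000, of 30 kb, with another of 14 kb at chr6:31949001-31963000. Levels per covered tile leave these runs out.

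Class I was richest in reads in its middle. The 4 windows from chr6:30500001 to chr6:30900000 had 0.901 to 1.17 CPM per kb for DPF2 and 1.08 to 1.32 for H3K14cr. The window chr6:31200001-31300000 had 0.289 and 0.263 for DPF2 and 0.237 and 0.241 for H3K14cr, and chr6:29800001-29900000 had 0.268 and 0.263 for DPF2 and 0.290 and 0.265 for H3K14cr. Class II spanned nearly the whole range of levels. Its window chr6:32400001-32500000 had 0.153 and 0.150 CPM per kb for DPF2 and 0.142 and 0.118 for H3K14cr, the lowest of the 37 windows. Its last window, chr6:33200001-33300000, had 1.41 and 1.37 for DPF2 and 1.39 and 1.36 for H3K14cr. The mean of class II therefore joins a read-poor and a read-rich part.

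The second comparison asked how densely enriched sites lay in each class. A tile was called enriched for an antibody when, in both of its libraries, its reads reached at least 3 times the background and passed a one-sided Poisson test at an adjusted p of 0.001 or less (Benjamini-Hochberg, over all covered tiles). The background was the higher of 2 means, that of the chromosome and that of the 20 kb around the tile. In the MHC 25 tiles were enriched for DPF2 and 35 for H3K14cr, 15 of them for both and 45 for either. As shares of covered tiles these were 0.712% for DPF2 (95% Wilson interval 0.482 to 1.05%) and 0.996% for H3K14cr (0.717 to 1.38%). Over the covered tiles of the whole genome the shares were 0.215% and 0.416%, and 0.16% for both antibodies. Outside the MHC the intervals were 0.209 to 0.220% for DPF2 and 0.407 to 0.423% for H3K14cr, and neither overlaps that of the MHC. The intervals treat tiles as independent and cover counting error only. At a fold of at least 5 the excess was not seen: 2 tiles of the MHC remained for each antibody (0.0569% of covered tiles), where the genome had 0.0502% for DPF2 and 0.096% for H3K14cr.

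Class III had the highest density for both antibodies and class II the lowest. A tile with few reads needs a higher fold to pass the Poisson test, so calls are easier where the read level is high. For DPF2, chr6:32121001-32122000 was called at folds of 3.10 and 3.47 on 26 and 45 reads. In the same class chr6:32016001-32017000 was not, at 3.17 and 3.28 on 11 and 18 reads. How far this enters the densities of the classes and of the MHC was not tested. In class III 7 tiles were enriched for DPF2 (0.958% of covered tiles, interval 0.465 to 1.96%) and 12 for H3K14cr (1.64%, 0.942 to 2.85%). In class I there were 13 for DPF2 (0.708%, 0.414 to 1.21%) and 17 for H3K14cr (0.926%, 0.579 to 1.48%). In class II there were 5 for DPF2 (0.529%, 0.226 to 1.23%) and 6 for H3K14cr (0.634%, 0.291 to 1.38%). The intervals of the 3 classes overlap for each antibody, so the order of the classes was not separated by counting error. Against the genome, the intervals of class III and class I lie above 0.215% and 0.416%, as does the DPF2 interval of class II, whereas the H3K14cr interval of class II includes 0.416%. In single libraries the MHC had 41 and 41 enriched tiles for DPF2 and 52 and 65 for H3K14cr, against genome shares of 0.31% and 0.482% for DPF2 and 0.56% and 0.651% for H3K14cr. In class III these were 10 and 14 tiles for DPF2 and 17 and 18 for H3K14cr, in class I 22 and 20 for DPF2 and 25 and 37 for H3K14cr, and in class II 9 and 7 for DPF2 and 10 and 10 for H3K14cr. These are also the counts when the other library of an antibody is left out. Outside the 45 tiles, 53 tiles of the MHC (1.51% of covered tiles) were called in single libraries only, where the genome had 0.497%. They were 13 in class III (1.78%), 30 in class I (1.63%) and 10 in class II (1.06%).

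The local background bears on these densities. With the chromosome mean alone as background, 12.2% of covered tiles in class III were enriched for DPF2 (interval 10.0 to 14.7%) and 19.4% for H3K14cr (16.7 to 22.5%). The shares were 3.54% (2.79 to 4.49%) and 6.43% (5.39 to 7.64%) in class I, and 4.33% (3.21 to 5.83%) and 6.55% (5.15 to 8.31%) in class II. The genome had 1.11% and 2.12% by the same rule. By this measure class III had the highest shares, and class II was no longer lowest. The 500 kb just after the MHC had 5.02% for DPF2 and 10.0% for H3K14cr, above class I and class II. The 500 kb just before it had 0.873% and 1.31%. This rule counts the raised read level itself, and neighbouring tiles of a raised stretch can be called together. The intervals treat tiles as independent, so they do not set the classes apart. The window chr6:30650001-30660000 of class I shows the difference between the rules. It had 2.44 and 2.45 CPM per kb for DPF2 and 3.44 and 3.59 for H3K14cr, the highest H3K14cr level of the 10 kb windows of the MHC, yet it held no enriched tile over its own surroundings.

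**Figure D2:**
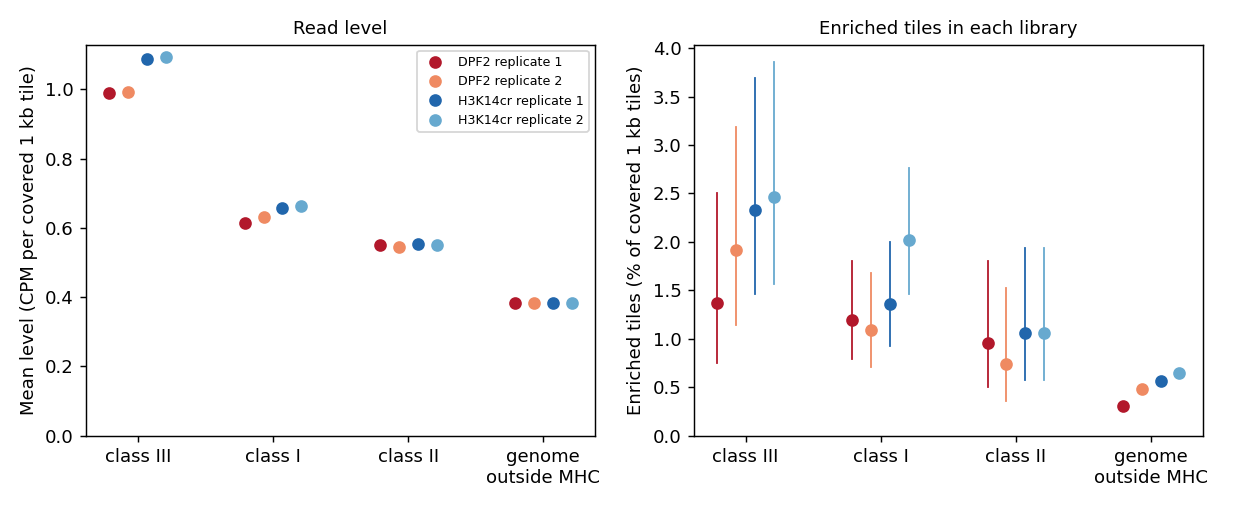
Left, mean level in CPM per covered 1 kb tile, 1 point per library, by class and for the genome outside the MHC. Right, enriched tiles as a percentage of covered tiles in each library with 95% Wilson intervals; class III is highest in both panels for every library, and the intervals of the classes overlap.

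Enriched sites were narrow in every class. Touching tiles formed 22 DPF2 regions and 27 H3K14cr regions, and no region of either antibody was wider than 2 kb. A width of 2 kb was reached by 3 DPF2 regions, 1 in each class at chr6:31830001-31832000 in class III, chr6:31125001-31127000 in class I and chr6:33266001-33268000 in class II. It was reached by 8 H3K14cr regions, among them chr6:31762001-31764000 in class III, chr6:30028001-30030000 in class I and chr6:32861001-32863000 in class II. The local background rises beside a broad signal and limits the width that can be called.

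Sites were unevenly spread. The longest stretch without an enriched tile of either antibody was 739 kb, chr6:32122001-32861000, from the end of class III into class II. It covers the first 561 kb of class II, where the level was 0.332 and 0.330 CPM per covered tile for DPF2 and 0.324 and 0.322 for H3K14cr. In that part 28.7% and 21.9% of tiles had no read in the DPF2 libraries, and 25% and 17.8% had none in the H3K14cr libraries. For DPF2 alone the stretch without a site ran to 1007 kb, chr6:32122001-33129000. The longest stretch without a site of either antibody was 178 kb in class III, chr6:32122001-32300000, and 333 kb in class I, chr6:29600001-29933000. All enriched tiles of class II thus lay between chr6:32861001 and chr6:33268000, and its last 100 kb held 4 of its 5 DPF2 tiles and 3 of its 6 H3K14cr tiles. Tiles without reads cannot be called, and their part in these gaps was not tested.

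The third comparison asked how strong the sites were. Folds over background were modest and similar among the classes. At DPF2 tiles the median of the mean fold was 3.72 in class III, 3.93 in class I and 4.55 in class II. At H3K14cr tiles it was 4.10 in class III, 4.71 in class I and 3.84 in class II. Over the genome outside the MHC the medians were 4.56 for DPF2 and 4.41 for H3K14cr. The background under the called tiles differed more than the folds did. Its median at DPF2 tiles was 1.03 CPM in class III, 0.718 in class I and 1.41 in class II, against 0.634 in the genome outside the MHC. The highest DPF2 tile of the MHC ranked 153 of 5582 in the genome by the fold of its lower library (8.26), and the highest H3K14cr tile ranked 969 of 10802 (6.14).

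The DPF2 site with the highest fold over background in the MHC was in class III, although a class II tile had a higher level (mean 9.31 against 8.48 CPM). At chr6:31831001-31832000 the level was 8.09 and 8.86 CPM for DPF2 and 2.76 and 1.84 CPM for H3K14cr, so the libraries of the antibodies did not overlap. The folds over background were 8.26 and 9.75 for DPF2 and 2.69 and 1.96 for H3K14cr, and the tile was not enriched for H3K14cr. The DPF2 signal was concentrated near the centre of the tile, with 22 and 27 reads in the highest 100 bp bin of the DPF2 libraries. Over 5 bins around each library's own highest bin, DPF2 averaged 12.5 and 15.8 times the flanks from 2 to 3 kb away. H3K14cr averaged 5.68 and 2.58 times its flanks. The highest bin lay at 8 and 27 bp from the tile centre for DPF2. For H3K14cr it lay at -11 and -616 bp, the latter outside the tile, so the antibodies were not compared at the same position. The neighbouring tile chr6:31830001-31831000 had 4.37 and 4.20 CPM for DPF2 and 2.76 and 3.28 CPM for H3K14cr, with folds of 3.78 and 3.66 for DPF2 and 2.75 and 3.94 for H3K14cr.

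The other tiles named in class III were enriched for both antibodies or higher in H3K14cr. One further DPF2 tile, chr6:32097001-32098000, chosen after its values were seen, was enriched for DPF2 alone, with 4.11 and 3.0 CPM for DPF2 and 3.03 and 3.45 CPM for H3K14cr, and these values overlap. At chr6:31763001-31764000 the level was 4.37 and 3.60 CPM for DPF2 and 4.23 and 4.03 CPM for H3K14cr. At chr6:31774001-31775000 it was 3.98 and 3.0 CPM for DPF2 and 4.14 and 4.26 CPM for H3K14cr. Both tiles were enriched for both antibodies. In the first the H3K14cr libraries lay within the DPF2 values, and in the second slightly above them without passing limma (adjusted p = 0.287). At chr6:31802001-31803000, the highest H3K14cr fold of class III, the level was 4.75 and 3.75 CPM for DPF2 and 5.61 and 5.64 CPM for H3K14cr. At chr6:32121001-32122000, the last site before the long gap, it was 3.34 and 3.38 CPM for DPF2 and 4.96 and 5.41 CPM for H3K14cr.

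In class I the highest fold was at the same tile for both antibodies. At chr6:30294001-30295000 the level was 4.75 and 3.60 CPM for DPF2 and 4.69 and 5.07 CPM for H3K14cr, with folds of 7.05 and 4.95 for DPF2 and 6.14 and 6.77 for H3K14cr. At chr6:31371001-31372000 the level was 2.18 and 1.95 CPM for DPF2 and 2.67 and 1.78 CPM for H3K14cr. At chr6:30312001-30313000 it was 2.57 and 2.93 CPM for DPF2 and 3.58 and 2.94 CPM for H3K14cr. None of these 3 tiles passed the test between the antibodies by limma (adjusted p = 0.341, 0.828 and 0.414). The next H3K14cr tiles were chr6:30029001-30030000, with 2.83 and 2.25 CPM for DPF2 and 4.23 and 3.63 CPM for H3K14cr, and chr6:30615001-30616000, with 2.70 and 2.85 CPM for DPF2 and 4.04 and 5.30 CPM for H3K14cr. In both, the H3K14cr libraries lay above the DPF2 libraries.

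In class II the highest DPF2 fold and the highest H3K14cr fold were at different places. The DPF2 site spanned 2 tiles. At chr6:33267001-33268000 the level was 9.76 and 8.86 CPM for DPF2 and 5.61 and 4.84 CPM for H3K14cr, with folds of 6.23 and 5.61 for DPF2 and 3.61 and 3.12 for H3K14cr. At chr6:33266001-33267000 it was 8.99 and 8.26 CPM for DPF2 and 3.77 and 4.89 CPM for H3K14cr, and this tile was enriched for DPF2 alone. The 100 bp bins showed a DPF2 summit on each side of the border between these tiles in both libraries, the higher of them at 3.08 and 2.93 CPM. The H3K14cr site, also of 2 tiles, had lower levels: chr6:32862001-32863000 had 1.03 and 2.25 CPM for DPF2 and 2.76 and 2.48 CPM for H3K14cr, with H3K14cr folds of 6.76 and 5.55. A site shared by both antibodies, chr6:33217001-33218000, had 3.08 and 3.83 CPM for DPF2 and 3.40 and 3.11 CPM for H3K14cr.

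**Figure D3:**
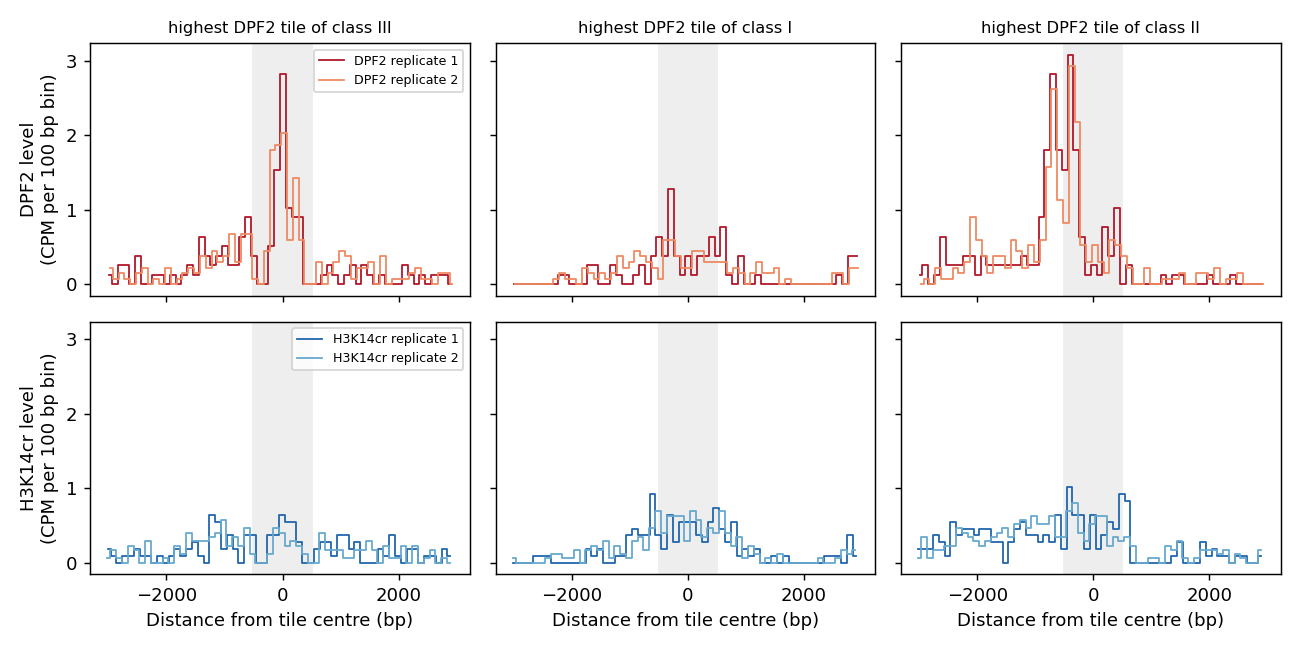
Level in CPM per 100 bp bin against distance in bp from the centre of the tile with the highest DPF2 fold in each class, DPF2 libraries above and H3K14cr libraries below, with the tile shaded. Within 1000 bp of the centre the DPF2 libraries reach 2.03 to 3.08 CPM in class III and class II. In class I they reach 1.28 and 0.601 CPM, where the H3K14cr libraries reach 0.919 and 0.691 CPM. The H3K14cr libraries of all 3 classes reach at most 1.01 CPM.

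The fourth comparison asked how the ratio of DPF2 to H3K14cr differed between the classes. Summed over all tiles and scaled by library totals, the ratio was lowest in class III and highest in class II. It was 0.909 in class III (95% exact binomial interval of pooled reads 0.890 to 0.928), 0.947 in class I (0.931 to 0.962) and 0.991 in class II (0.967 to 1.02). Over single pairs of libraries it ran from 0.904 to 0.914 in class III, from 0.927 to 0.962 in class I and from 0.983 to 1.00 in class II. These ranges do not overlap. On chromosome 6 outside the MHC the ratio was 1.01 (1.01 to 1.01). The 500 kb just after the MHC had 0.896 (0.871 to 0.921), an interval that overlaps that of class III. The 500 kb just before the MHC had 1.05 (1.01 to 1.10). A ratio as low as that of class III was thus not particular to it. Scaling by median-of-ratios factors over enriched tiles moved the classes above 1, to 1.18 in class III, 1.23 in class I and 1.29 in class II. A ratio above or below 1 thus depends on the scaling. Such factors shift all classes nearly alike, so this scaling could not test their order.

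The differences between classes within a library do not depend on scaling. The level of class III over class I was 1.61 and 1.57 for DPF2 and 1.65 and 1.65 for H3K14cr. Class III over class II was 1.80 and 1.83 for DPF2 and 1.97 and 1.99 for H3K14cr. Class I over class II was 1.12 and 1.16 for DPF2 and 1.19 and 1.21 for H3K14cr. In all 3 comparisons both DPF2 libraries lay below both H3K14cr libraries. The exact permutation test over the 4 libraries gave p = 0.33 for each, two-sided (adjusted p = 0.33 over the 3), which is the smallest that 2 against 2 libraries allow.

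The ratio was lower where the read level was higher. Over the 37 windows of 100 kb the Spearman correlation between the mean level of both antibodies and the ratio was -0.65, and over 27479 such windows of the genome it was -0.72. Both are descriptions across windows of the same 4 libraries, which share depth and base composition, and the level enters the ratio. In class III 5 of 8 windows had an interval below 1 and 0 above it, in class I 6 of 19 were below and 1 above, and in class II 2 of 10 were below and 4 above. Of the genome's windows 15.8% were below and 34.9% above, with a median ratio of 1.07, against 0.961 in the MHC. The lowest ratio was 0.853 (0.794 to 0.916) at chr6:32800001-32900000 and the highest 1.20 (1.05 to 1.36) at chr6:32600001-32700000, both in class II. Other scaling factors move every window by the same factor.

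**Figure D4:**
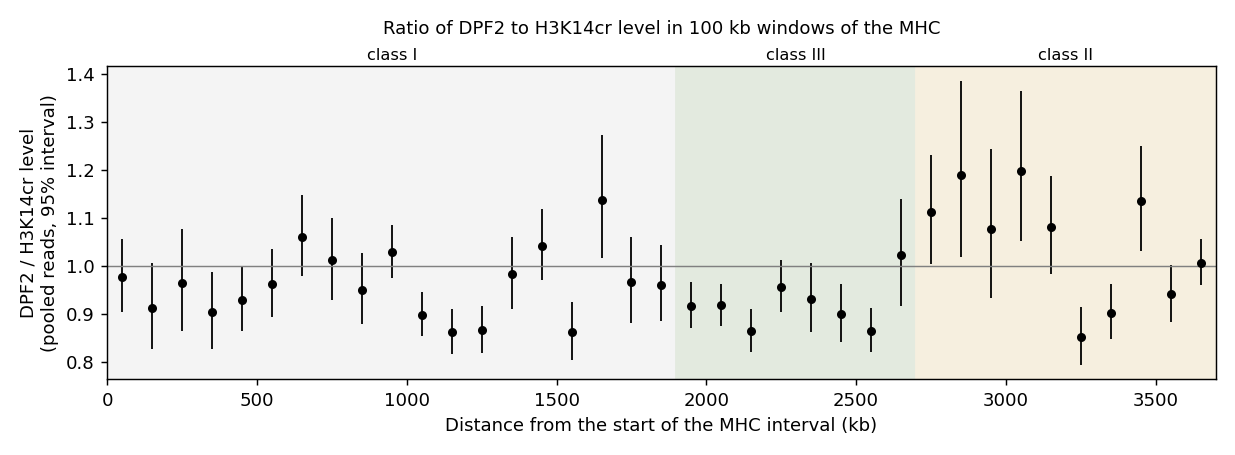
Ratio of DPF2 to H3K14cr level in each 100 kb window of the MHC, against distance from the start of the interval in kb, with 95% exact binomial intervals of pooled reads and a line at equal levels. Class III windows lie between 0.865 and 1.02, and class II windows between 0.853 and 1.20.

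At enriched tiles alone the classes stood in another order, but these tiles had been selected by calls on the same reads. Tiles enriched for DPF2 alone and for H3K14cr alone numbered 3 and 8 in class III, and 4 and 8 in class I. In class II they numbered 3 and 4, and this mix enters the ratio. Over the tiles enriched for either antibody the ratio was 0.896 (0.830 to 0.968) in class III, 0.848 (0.790 to 0.911) in class I and 1.20 (1.08 to 1.32) in class II, against 0.808 over the enriched tiles of the genome outside the MHC. The class II value rested on few tiles: without the 2 tiles at chr6:33266001-33268000 it was 0.903 (0.794 to 1.03), and without chr6:31831001-31832000 class III was at 0.778 (0.717 to 0.844). These tiles were left out after their values were seen. Over tiles enriched for neither antibody the ratio was 0.910 in class III, 0.953 in class I and 0.978 in class II.

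The fifth comparison set the antibodies against each other tile by tile. All 45 were tested with limma among 12225 enriched tiles of the genome, on log2(CPM + 0.5), a scale that understates the change of low tiles. The tiles had been selected by enrichment for either antibody in the same reads, 10 of the 45 for DPF2 alone and 20 for H3K14cr alone. Over the genome 5582 tiles were enriched for DPF2 and 10802 for H3K14cr. The calls in each direction and the medians thus partly follow from that selection. At an adjusted p of at most 0.05, 3 of the 45 were higher in DPF2 and 14 higher in H3K14cr, where the genome had 4.19% and 31.4%. In class III 1 was higher in DPF2 and 5 in H3K14cr of 15, in class I 0 and 7 of 21, and in class II 2 and 2 of 9. As a median over tiles, the log2 difference (DPF2 minus H3K14cr) was -0.37 in class III, -0.21 in class I and 0.07 in class II, and -0.33 over all tiles tested. Over the 45 tiles the median was -0.22, and -0.26 without H3K14cr replicate 1 and -0.23 without H3K14cr replicate 2. Over all tiles tested it was then -0.32 and -0.35. Both of these fits have 1 H3K14cr library and called fewer tiles higher in H3K14cr, in the MHC and over the genome alike. With median-of-ratios factors, which move the median of all tiles to -0.02, the counts were 7 higher in DPF2 and 2 higher in H3K14cr. The genome then had 1100 and 660 of 12225 tiles.

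The 3 tiles higher in DPF2 were the strong sites described above. The log2 difference was 1.70 at chr6:31831001-31832000 (95% interval 1.35 to 2.05, adjusted p = 2.60e-12 by limma), a ratio of 3.91 in pooled reads (2.91 to 5.30). It was 0.93 at chr6:33266001-33267000 (0.60 to 1.25, adjusted p = 1.18e-05 by limma), a ratio of 1.91 (1.51 to 2.42). It was 0.78 at chr6:33267001-33268000 (0.46 to 1.10, adjusted p = 1.24e-04 by limma), a ratio of 1.79 (1.44 to 2.24). These calls held in all 9 alternative fits.

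Among tiles higher in H3K14cr, all 14 were enriched for H3K14cr and 2 also for DPF2, and in all 14 the H3K14cr libraries lay above the DPF2 libraries. Both traits follow largely from how these tiles were selected and called, and are not a separate result. On the log2(CPM + 0.5) scale the largest difference was at chr6:30028001-30029000 in class I, where the level was 0.642 and 2.55 CPM for DPF2 and 4.87 and 3.22 CPM for H3K14cr. Its log2 difference was -1.26 (adjusted p = 7.02e-05 by limma), but the DPF2 libraries lay far apart, and without DPF2 replicate 1 it was -0.55. At chr6:32861001-32862000 in class II the level was 0.642 and 0.601 CPM for DPF2 and 1.84 and 1.67 CPM for H3K14cr, a log2 difference of -1.01 (adjusted p = 0.00128 by limma). Its ratio in pooled reads was further from 1 than that of the class I tile, at 0.355 against 0.479. The class II tile rests on 5 and 8 DPF2 reads and 20 and 29 H3K14cr reads. Without H3K14cr replicate 1 its adjusted p was 0.0769 by limma.

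The other 3 named tiles were in class III. At chr6:32014001-32015000 the level was 0.514 and 0.826 CPM for DPF2 and 1.75 and 1.5 CPM for H3K14cr (log2 difference -0.87, adjusted p = 0.00543 by limma). At chr6:31762001-31763000 it was 1.80 and 2.55 CPM for DPF2 and 3.86 and 4.78 CPM for H3K14cr (-0.86, adjusted p = 6.55e-04 by limma). It adjoins chr6:31763001-31764000, where both antibodies were enriched. At chr6:32120001-32121000 the level was 1.80 and 2.55 CPM for DPF2 and 4.50 and 4.09 CPM for H3K14cr (-0.86, adjusted p = 6.34e-04 by limma), beside the shared tile chr6:32121001-32122000. With median-of-ratios factors none of these 3 passed (adjusted p = 0.0828, 0.0674 and 0.0648 by limma). Each of the 3 also lost its call when one H3K14cr library was left out, with adjusted p = 0.153 without replicate 1 and 0.067 without replicate 2 for chr6:32014001-32015000, 0.0783 without replicate 2 for chr6:31762001-31763000 and 0.0545 without replicate 1 for chr6:32120001-32121000 (limma).

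**Figure D5:**
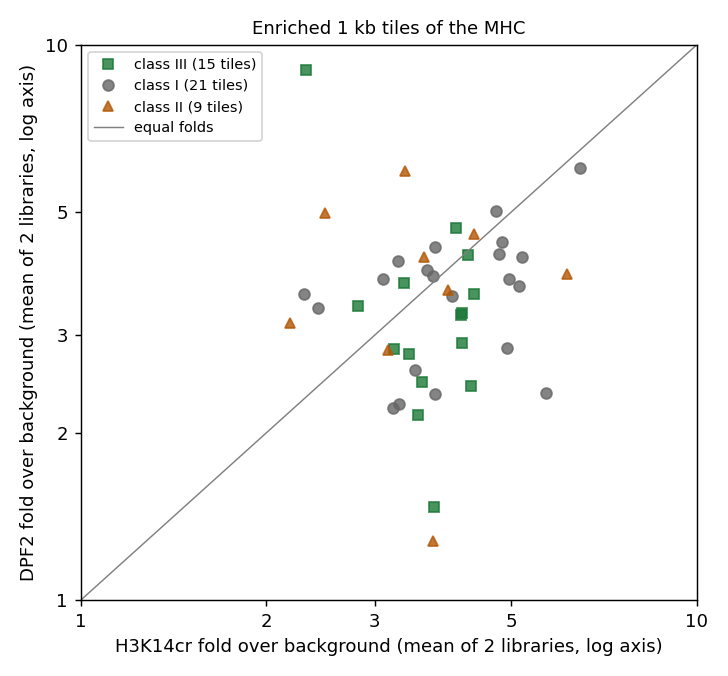
Mean fold over background of DPF2 against that of H3K14cr, on log axes, for the 45 enriched tiles of the MHC, marked by class, with a line at equal folds. The class III tile with a DPF2 fold of 9.0 and an H3K14cr fold of 2.32 stands alone at the top left, and the other tiles have DPF2 folds from 1.28 to 6.0.

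A test over 10 kb windows, added after the data were seen, also reached stretches without an enriched tile. Of 357 windows tested with limma among 252469 of the genome, 3 were higher in DPF2 and 12 higher in H3K14cr at an adjusted p of at most 0.05, where the genome had 0.621% and 1.35%. In class III 1 and 5 of 74 were called, in class I 0 and 4 of 188, and in class II 2 and 3 of 95. With median-of-ratios factors 107 were higher in DPF2 and 0 in H3K14cr, against 30.1% and 0.101% of the genome, so the counts depend on the scaling, which shifts all windows alike. Of the 12 windows higher in H3K14cr, 10 kept a negative log2 difference with these factors and 0 kept the call. The window chr6:32750001-32760000 was called higher in DPF2 inside the part of class II that had no enriched tile. It had 0.347 and 0.383 CPM per kb for DPF2 and 0.193 and 0.202 for H3K14cr. Its pooled reads stood at a ratio of 1.86 (exact 95% interval 1.31 to 2.68), with an adjusted p of 0.0411 by limma. With median-of-ratios factors the adjusted p was 5.31e-04 by limma. These factors shift every window toward DPF2, so the smaller value is not separate support.

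Sharing between the antibodies did not stand apart from that of the genome, whose shares lie within the intervals of the MHC. Of the 25 DPF2 tiles 15 (60.0%, 95% Wilson interval 40.7 to 76.6%) were also enriched for H3K14cr, against 74.5% of 5582 in the genome. Of the 35 H3K14cr tiles the same 15 (42.9%, 28.0 to 59.1%) were also enriched for DPF2, against 38.5% of 10802. By class, 4 of 7 DPF2 tiles were shared in class III, 9 of 13 in class I and 2 of 5 in class II. Tiles called for one antibody alone often lay near the fold cut-off of 3 in the other. Among the 10 tiles with a DPF2 call alone the median fold of H3K14cr was 2.66 (mean of both libraries, from 2.19 to 3.61), and 5 of them were called in a single H3K14cr library. Among the 20 tiles with an H3K14cr call alone the median fold of DPF2 was 2.68 (from 1.28 to 4.42), and 9 of them were called in a single DPF2 library.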

How the data were processed

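The deposited files list, for 1 library each, the signal of every 100 bp bin with a read; the authors scaled it to 10000000 reads. The submitters' processing notes name Bowtie2 and the builds mm9 and hg19. Bins beyond the end of chromosome 1 in GRCh38 occur, so hg19 was taken as the build. How duplicates, multiply mapping reads and bins were handled is not stated. Values divided by the worth of 1 read gave whole reads in 100% of cases (tolerance 0.01). Bins were summed by midpoint into 1 kb tiles.

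The members, classes and tests were chosen with earlier results of these data known. A tile's local background was the mean of the covered tiles around it, itself left out. Differences between antibodies were tested with limma 3.58.1 (trend) over enriched tiles averaging 10 reads or more, and with edgeR 4.0.16 on recovered reads as an alternative. Named tiles are the 3 highest per class and antibody by the lower library, and up to 5 per direction among limma calls whose libraries do not overlap. A tile named besides these was chosen after its values were seen. On simulated libraries limma found 66% of 100 tiles altered 2-fold and 99% of 100 altered 4-fold, with 9 false calls in 12225 tiles. Intervals cover counting error only, since no molecular identifiers are stated and reads may be PCR copies. Whether libraries came from separate cultures is not stated. The other software was R 4.3.3 and, under Python 3.11.15, scipy 1.17.1, pandas 2.3.3, numpy 2.4.6 and matplotlib 3.10.9.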

Additional observations from a re-analysis of the deposited data

How the results depend on the processing

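Values are given as DPF2 then H3K14cr, for the MHC, class III, class I and class II in turn. A fold of at least 5 left 2 and 2, 1 and 0, 0 and 1, and 1 and 1 enriched tiles; the chromosome mean as background gave 195 and 322, 89 and 142, 65 and 118, and 41 and 62; summed libraries gave 44 and 58, 12 and 20, 22 and 28, and 10 and 10. As shares of covered tiles the MHC stood at 0.0569% and 0.0569% at a fold of at least 5 (genome 0.0502% and 0.096%), 5.55% and 9.17% with the chromosome mean (1.11% and 2.12%), 1.25% and 1.65% with summed libraries (0.544% and 0.653%), 0.252% and 0.622% in 500 bp tiles (0.0662% and 0.256%) and 0.606% and 0.664% after thinning (0.165% and 0.303%). Tiles of 500 bp gave 6 for DPF2 in class I, and thinning to the shallowest library gave 23 for H3K14cr in the MHC, 11 in class I and 2 in class II, and 3 for DPF2 in class II. With a library left out, DPF2 had 41 tiles in the MHC, 10 to 14 in class III, 20 to 22 in class I and 7 to 9 in class II, and H3K14cr 52 to 65, 17 to 18, 25 to 37 and 10; 1 call is then asked for instead of 2. Class III had the highest density in 9 of 9 alternatives for DPF2 and 8 of 9 for H3K14cr, the exception being the fold of at least 5; class II was lowest in 6 and 7.

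The ratio with median-of-ratios factors was 1.23 in the MHC, 1.18 in class III, 1.23 in class I and 1.29 in class II, and over enriched tiles 0.848 in class I and 1.20 in class II. With a library left out it was 0.937 to 0.948 in the MHC, 0.906 to 0.912 in class III, 0.930 to 0.956 in class I and 0.986 to 0.999 in class II. Tiles higher in DPF2 numbered 7 and in H3K14cr 2 with median-of-ratios factors; leaving out a library gave 3 to 4 and 3 to 13, the lone library being assumed to vary like the others. edgeR called 3 and 11 (476 and 3623 of 12225 in the genome), and the fit with a replicate block 3 and 14 (508 and 3722). Deviations of same-numbered libraries correlated at -0.016 over enriched tiles, so the numbers were not taken to pair the libraries. None of the 17 called tiles changed direction; in 44 of 126 recomputed values, all at tiles higher in H3K14cr, the call was lost. The cause of these shifts was not tested. At this depth weak tiles are missed: a class II tile without reads shows only that no read was seen.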
